A study of Caenorhabditis elegans with 59 samples.

Results

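The 6 libraries described here come from sperm-only fem-3(q20) animals in which the heat shock transcription factor HSF-1 was depleted from the soma for 24 h, 3 libraries after auxin and 3 after mock treatment, out of 59 samples in the series. They were taken by sample title and column name from a table of 35 libraries that also holds fem-3(q20) at 8 h and 48 h and the germline-less strain glp-1(e2141). The strain was JTL670, with the genotype fem-3(q20) IV; hsf-1::aid::gfp I; ieSi57 II; unc-119(ed3) III. ieSi57 carries eft-3p::TIR1::mRuby together with Cbr-unc-119(+), and both groups share every one of these alleles. Animals were grown from the L1 stage at 25 °C for 48 h to Day 1 of adulthood, and about 120 worms per condition were then moved for 24 h to plates with auxin, which is indole-3-acetic acid, or with its solvent ethanol (mock). Whole animals were sequenced, so all tissues were read together.

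HSF-1 binds heat shock elements in promoters and activates genes for molecular chaperones, the proteins that help other proteins fold. In stressed cells it switches on the small heat shock proteins and inducible HSP70, and in unstressed cells it keeps up the transcription of constitutive chaperones such as HSP90 and HSC70. In the auxin-inducible degron system, the plant F-box protein TIR1 joins a ubiquitin ligase that, when auxin is present, marks a protein fused to the degron for the proteasome. TIR1 was expressed here from the eft-3 promoter, which is active in the soma, so HSF-1 in germ cells is not a target of the depletion. At 25 °C the gain-of-function allele fem-3(q20) makes hermaphrodites produce sperm and no oocytes. These animals are sterile with a normal lifespan, and served as the control for glp-1(e2141), whose germline stem cells are arrested and which lives long.

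For 4 of these 6 samples (replicates 2 and 3 of both treatments) the title and the agent tag name opposite treatments, as they do in 18 samples of the series, and the groups here follow the titles. The replicate 1 pair, in which both labels agree, gave a median log2 fold change of -0.53 over 28 HSF-1 target genes, and the pairs of replicates 2 and 3 gave -0.50 and -0.45. If the 4 samples were grouped by the tag, no gene passed the test in either direction and the median of the targets was 0.17. Whether the titles or the tags are right cannot be told from the labels alone.

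The libraries held between 9543901 and 19964797 reads on the listed genes, and ribosomal RNA took between 1.91% and 4.21% of them. Values are given as CPM, the reads of a gene relative to the size of its library, and 3 reads, the level at which a gene could still be missed, correspond to between 0.163 and 0.313 CPM. One glp-1 mock library of 24 h, replicate 1, stood apart in the same table, with 26.7% of ribosomal RNA and no read on 4340 genes, a number that was 114 to 436 in these 6 libraries. Sperm markers separated the strains: the major sperm proteins summed to between 3906 and 8210 CPM over the 18 fem-3 libraries and to between 0.326 and 6.23 CPM over the glp-1 libraries. Genes of oocytes and eggshell were read in both strains, at 2600 to 3216 CPM in sum in these 6 libraries and 1499 to 4738 CPM in glp-1.

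The hsf-1 mRNA (WBGene00002004) had 45.8, 59.7 and 52.6 CPM with auxin in replicates 1 to 3 and 54.1, 71.7 and 60.8 CPM in the mock. The groups overlapped, and the log2 fold change, auxin against mock, was -0.24 ± 0.21 (SE, adjusted p = 1.0 in limma). Because auxin acts on the protein, the level of the mRNA is no check of the depletion.

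Few genes were called after 24 h of depletion. With all 35 libraries sharing 1 estimate of the spread, 21 genes rose and 18 fell of 14269 tested, which is 0.147% and 0.126%. The call required a Benjamini-Hochberg adjusted p under 0.05 in limma and, over the table, an average level of 2 CPM or more. Before adjustment 6.57% of genes had a p under 0.05. In all 39 called genes the 3 auxin values and the 3 mock values did not overlap, against 17.3% of all genes tested. The calls were made on the same values, so this adds no support to them. All 39 code for proteins. HSF-1 targets made up 8 of the 18 that fell, and genes of the pals family another 5. The 21 that rose held no HSF-1 target and were spread over detoxification, lipid handling, C-type lectins and genes with few or no reads in glp-1(e2141).

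The number of calls depended on which libraries set the spread. The median residual SD was 0.331 on the log2 scale over the 35 libraries and 0.222 over the 18 fem-3 libraries. With these 18 alone 509 genes rose and 88 fell (3.57% and 0.617% of those tested), and with the 6 alone 406 rose and 61 fell (2.85% and 0.428%). The 39 genes were among the calls of both. With a block for replicate number 25 rose and 12 fell (0.175% and 0.0841%), including 13 of the 21 and 12 of the 18. The 14 genes lost had adjusted p-values between 0.0528 and 0.133 with it: cct-3, hsp-16.48, pals-11, pals-33, clec-166, cutl-18, scl-17, msrp-4, gst-7, T02H6.7, Y47G6A.26, F28F8.7, lin-33 and 1 copy of clec-209. That block was fitted to all 35 libraries, as it is wherever it is given below. With a block in the 6 libraries alone, 0 of the 39 were lost. Scaling each library to the sum of its CPM values gave 11 that rose and 19 that fell. Of the 39, 8 were called in every one of 20 other settings that kept the title groups with at least 2 libraries each: B0507.8, hsc-70, F56D6.12, dnj-13, jmjd-3.3, pals-14, hsp-90 and Y94H6A.10. The labels do not say that replicates came from separate cultures, so p-values measure the spread between libraries, which may be technical. In the main fit this is the spread within groups over all 35 libraries, not that of the 6 compared.

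Chaperone genes under HSF-1 were described with a list of targets that are bound by HSF-1 and were lower after its depletion in glp-1(e2141). It was chosen with glp-1 libraries of the same table, so its direction is not independent of them. The study names no comparison within fem-3(q20) for that choice. Whether fem-3 libraries entered the filter, normalization or spread behind it is not stated. In fem-3(q20) at 24 h, 8 of the 28 fell and none rose, 27 had a lower mean with auxin (47.1% of all genes did), and 17 had auxin values below every mock value (5.49% of all genes tested did). Their median log2 fold change was -0.50, against 0.02 over all genes tested. Summed over the list, the auxin libraries held between 5028 and 6397 CPM and the mock libraries between 8660 and 10459 CPM.

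HSP90 and HSC70 made up most of that difference in CPM. hsp-90 (WBGene00000915, V:14684918-14688545), the cytosolic HSP90 that matures kinases and nuclear receptors, had 1099, 1447 and 1143 CPM with auxin and 2609, 3189 and 2986 CPM in the mock. Every auxin library lay far below every mock library. The log2 fold change was -1.26 ± 0.16 (SE, adjusted p = 6.36e-05), a 2.39-fold lower level. hsc-70 (WBGene00002005, IV:17278959-17281330), also known as hsp-1, encodes the constitutive cytosolic HSP70 and had 942, 1213 and 1090 CPM with auxin. In the mock it had 2101, 2522 and 2679 CPM, so its groups were as clearly apart, at 2.25-fold (log2 fold change -1.17 ± 0.13, adjusted p = 1.58e-05). dnj-13 (WBGene00001031, II:11545701-11547360), a J-domain protein that stimulates the HSC70 ATPase, had 62.9, 64.5 and 67.6 CPM with auxin and 141, 164 and 143 CPM in the mock. It had the smallest adjusted p of all genes, 5.39e-06, with a log2 fold change of -1.19 ± 0.13.

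**Figure D1:**
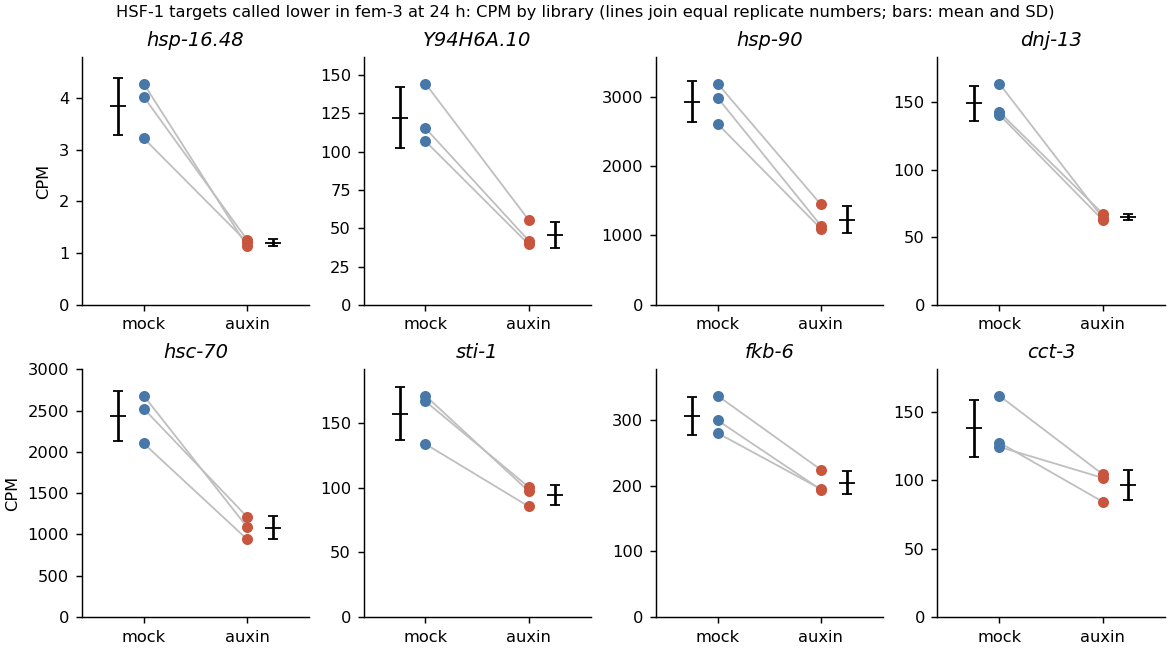
Level in CPM (linear axis from 0) of the 8 HSF-1 target genes called lower in fem-3(q20) at 24 h, with 1 point for each of the 3 mock and 3 auxin libraries, grey lines between libraries of equal replicate number, and bars for the mean and SD. In each gene the 3 auxin points lie below the 3 mock points, from hsp-90 at 1099 to 1447 against 2609 to 3189 CPM down to hsp-16.48 at 1.14 to 1.26 against 3.22 to 4.27 CPM.

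Among the co-chaperones of HSP90, sti-1 and fkb-6 fell. sti-1 (WBGene00019983, V:773518-774775), which links HSP70 and HSP90, had 85.4, 100.4 and 97.2 CPM with auxin against 134, 167 and 171 CPM in the mock. Its highest auxin value was below its lowest mock value, and its log2 fold change was -0.73 ± 0.15 (adjusted p = 0.0174). fkb-6 (WBGene00001431, V:20846158-20847727), an immunophilin of the FKBP family, had 195, 224 and 194 CPM against 280.1, 337 and 299 CPM. The change of -0.58 ± 0.10 on the log2 scale (adjusted p = 0.00848) was a 1.49-fold lower level. ahsa-1, the activator of the HSP90 ATPase, was at -0.32 and was not called.

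The CCT chaperonin is the ring complex that folds actin and tubulin. All 8 of its subunits had a lower mean with auxin, 7 of them without overlap of the groups (47.1% and 5.49% of all genes), and their median was -0.39 on the log2 scale. Only cct-3 (WBGene00018782, II:2233540-2243539) was called, with 84.4, 105 and 102 CPM against 128, 162 and 125 CPM and a log2 fold change of -0.51 ± 0.11 (adjusted p = 0.0495, and 0.133 with the replicate block). Its neighbours in size of change were cct-2 at -0.51 (adjusted p = 0.105) and cct-8 at -0.50 (adjusted p = 0.232). With the spread of the 18 fem-3 libraries 5 of the 8 subunits fell, against 0.617% of all genes.

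Of the remaining constitutive targets, none was called. hsp-60, the mitochondrial chaperonin, was at -0.52 on the log2 scale (adjusted p = 0.345), with 186, 255 and 261 CPM against 270.5, 352 and 383 CPM. Its groups did not overlap. hsp-110, a nucleotide exchange factor of HSC70, was at -0.32, and the J-domain genes dnj-12 and dnj-19 were at -0.28 and 0.07. Taken over the 14 constitutive chaperones, 6 fell, 10 had groups that did not overlap, and the median was -0.50.

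Inducible chaperones had low levels in these unstressed animals, and 1 of the 8 was called. With the spread of the 18 fem-3 libraries 5 fell, and with the 6 alone 4 (0.617% and 0.428% of all genes fell). hsp-16.48 (WBGene00002019, V:9088131-9088617), a small heat shock protein, had 1.14, 1.21 and 1.26 CPM with auxin and 4.27, 3.22 and 4.02 CPM in the mock. The auxin values were tight and below all mock values, at a log2 fold change of -1.57 ± 0.35 (adjusted p = 0.0479, and 0.103 with the replicate block). hsp-16.49, hsp-16.1 and hsp-16.11 had changes of -1.49, -1.73 and -1.68 and adjusted p-values of 0.0532, 0.0524 and 0.0508. These genes are near-identical copies of one another, so reads could be split between hsp-16.48 and hsp-16.49 and between hsp-16.1 and hsp-16.11, and they are not separate measurements. hsp-16.2 and hsp-16.41, at -2.03 and -1.68, were close to the floor, with 0 reads in 1 and 2 of the auxin libraries.

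The inducible HSP70 pair F44E5.4 and F44E5.5, also near-identical copies, stood apart from the small heat shock genes. F44E5.4 had 6.75, 4.32 and 5.28 CPM with auxin against 7.09, 4.86 and 7.06 CPM in the mock, with overlapping groups and a log2 fold change of -0.22 ± 0.32. F44E5.5 had 7.32, 4.47 and 5.70 CPM against 8.55, 5.52 and 7.61 CPM. Outside the targets, hsp-70, a further heat-inducible member, had 1.20, 1.67 and 0.540 CPM against 3.86, 2.82 and 2.99 CPM, at -1.51 with an adjusted p of 0.0910.

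Among the 6 targets with other functions 1 was called. Y94H6A.10 (WBGene00022382, IV:2710121-2710666) had 55.3, 39.5 and 41.9 CPM with auxin and 144, 107 and 115 CPM in the mock. Each auxin value was well under the lowest mock value, and its 2.68-fold lower level (log2 fold change -1.42 ± 0.17, adjusted p = 3.31e-05) was the largest change of a called target apart from hsp-16.48. glh-1, a germ granule helicase, was at -0.31 (adjusted p = 0.802). mbf-1, a transcriptional coactivator, was at -0.10 and egg-5, which acts at egg activation, at 0.00. egg-5 had at most 9 reads in any glp-1 library.

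**Figure D2:**
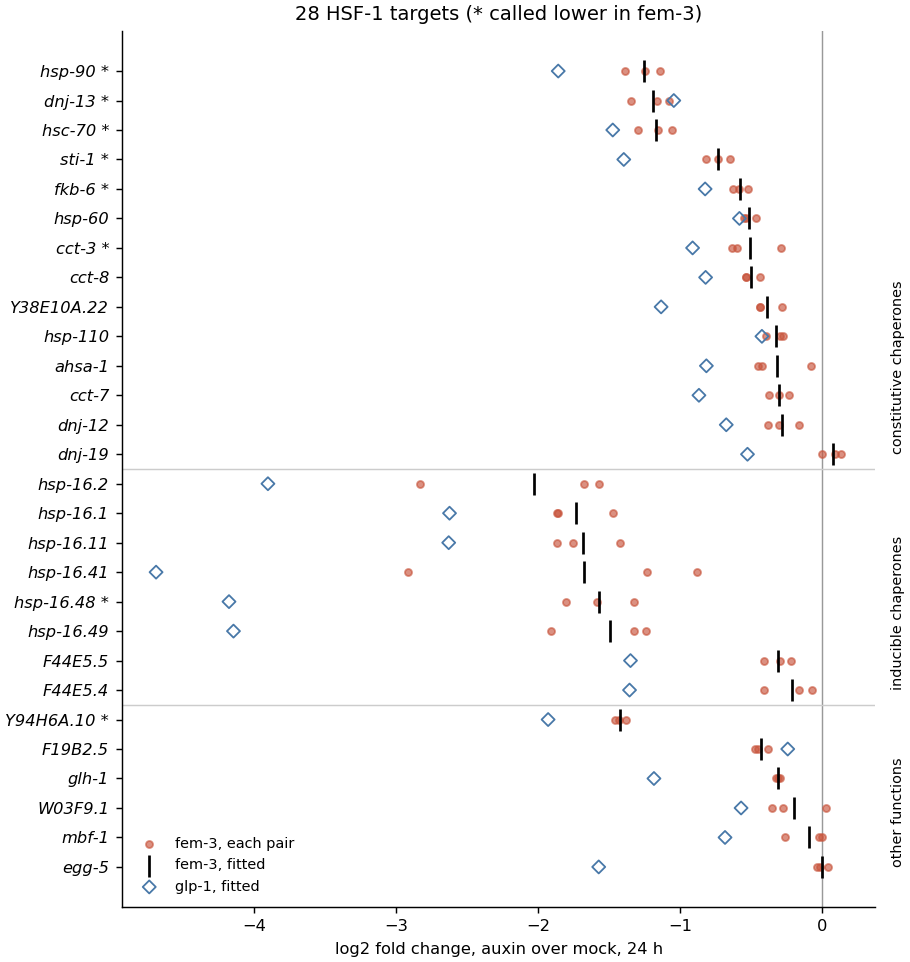
Log2 fold change, auxin over mock at 24 h, of the 28 HSF-1 targets by class, with red points for the 3 replicate pairs of fem-3(q20), a black bar for its fitted value, a blue diamond for the fitted value in glp-1(e2141), and an asterisk at genes called lower in fem-3(q20). The fitted values have medians of -0.50 in fem-3(q20) and -1.16 in glp-1(e2141), and the inducible chaperones show the widest gaps between the strains.

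Other chaperone lists had no called member with the spread of all 35 libraries. Over 15 other co-chaperones of HSP90 and HSC70 the median was -0.13, over 26 other J-domain proteins -0.02, over 22 genes of the endoplasmic reticulum 0.05 and over 12 of the mitochondria, hsp-60 among them, -0.15. With the spread of the 18 fem-3 libraries 1 co-chaperone (cyn-7) and 2 of the mitochondrial list fell. So did 1 of 6 prefoldin genes and 1 of 4 other HSP70 genes (0.617% of all genes fell). The J-domain gene dnj-28 rose, which is 3.85% of its list, near the 3.57% of all genes that rose. Small heat shock proteins outside hsp-16 went both ways. Of 6 tested 3 were lower and 3 higher in mean, and with the 18 fem-3 libraries 1 fell and 1 rose. Summed over the 8 listed, their level was higher with auxin, at 411 to 457 CPM against 317 to 379 CPM in the mock. The 31 proteasome subunits had a median of 0.10. Of the 81 cytosolic ribosomal proteins 80 were lower in mean, with a median of -0.13 and none called.

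The CA1200 control strain (ieSi57 II; unc-119(ed3) III) has the same TIR1 and no degron, is fertile and was grown at a lower temperature, and its libraries are in tables of their own. The median log2 fold change was 0.00 over the 26 targets tested at 24 h and 0.03 over the 22 tested at 8 h. hsp-90 was at 0.06 at both times and dnj-13 at -0.05 and 0.01.

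The pals genes were the second group that fell. They form a large family in C. elegans, named for a protein signature of unknown biochemical function. pals-22 and pals-25 are known as opposing regulators of the intracellular pathogen response, the program that intestinal cells start upon infection by microsporidia or the Orsay virus, and pals-5 is its usual reporter. Of 38 annotated pals genes 33 were in the table and 31 passed the filter on low values. Of these 31, 5 fell and none rose (16.1%, against 0.273% of all genes). A lower mean with auxin was found in 24 (47.1% of all genes). The groups did not overlap in 12 that were lower and 1 that was higher (5.49% and 11.8% of all genes). The median log2 fold change was -0.51. Summed over the family, the auxin libraries held between 164 and 226 CPM and the mock libraries between 285 and 363 CPM.

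pals-14 (I:13139122-13141898) had the smallest adjusted p of the family. It had 20.0, 12.3 and 14.7 CPM with auxin against 65.3, 68.6 and 54.2 CPM in the mock, and fell by 2.01 ± 0.28 on the log2 scale (adjusted p = 0.000211). Its neighbour pals-6 (I:13136390-13138544) had 34.3, 29.9 and 28.3 CPM against 61.1, 69.4 and 54.0 CPM. Its groups were separate, at a log2 fold change of -0.99 ± 0.19 (adjusted p = 0.0119). pals-11 (I:13124168-13126650), in the same stretch of chromosome I, had 0.252, 0.379 and 1.26 CPM against 7.19, 6.37 and 4.56 CPM. It was near the floor in the auxin libraries, and its log2 fold change was -3.24 ± 0.72 (adjusted p = 0.0437, and 0.105 with the replicate block). Between pals-11 and pals-6 lies pals-5, with 0.568, 0.303 and 1.38 CPM against 10.2, 9.72 and 3.64 CPM. All mock values were above all auxin values, but its log2 fold change of -3.25 missed the threshold (adjusted p = 0.0512).

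The remaining called genes of the family lie on chromosome V. pals-38 (V:12445164-12446995) had 2.02, 0.455 and 1.86 CPM with auxin and 6.88, 5.78 and 6.14 CPM in the mock, at -2.24 ± 0.44 (adjusted p = 0.0142). pals-33 (V:3673380-3676632) had 6.94, 2.80 and 4.26 CPM against 17.0, 18.3 and 12.6 CPM, at -1.82 ± 0.37 (adjusted p = 0.0185, and 0.0595 with the replicate block). In both the groups were apart. Below the threshold, pals-29, pals-9 and pals-30 were at -2.66, -2.31 and -2.03. The regulators pals-22 and pals-25 were at -0.51 and 0.56 and were not called, and pals-18 was at 0.96. With the spread of the 18 fem-3 libraries 11 of the 31 fell (35.5%, against 0.617% of all genes).

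**Figure D3:**
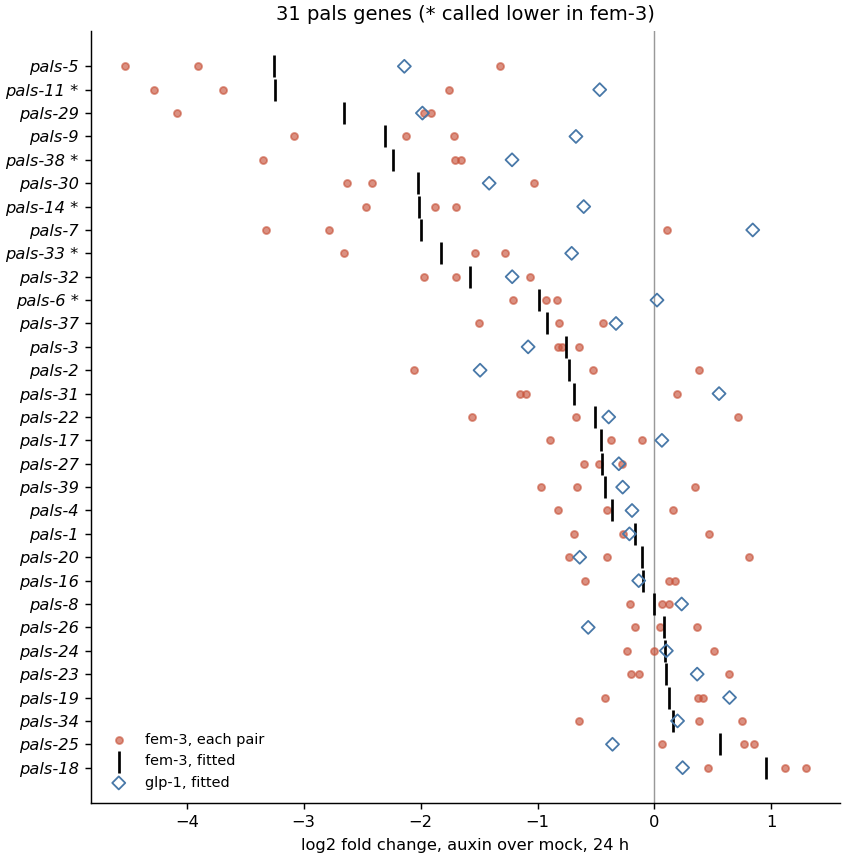
Log2 fold change, auxin over mock at 24 h, of the 31 pals genes tested, with red points for the 3 replicate pairs of fem-3(q20), a black bar for its fitted value, a blue diamond for the fitted value in glp-1(e2141), and an asterisk at genes called lower in fem-3(q20). Called genes run from pals-11 at -3.24 to pals-6 at -0.99, and the highest fitted value is that of pals-18 at 0.96.

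In CA1200, 8 pals genes could be tested at 24 h, with a median of -0.05, and 9 at 8 h, with a median of -0.25. The 5 called genes were not tested there at either time. A part of auxin itself in their change was therefore not tested.

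The other 5 genes that fell belong to neither group. B0507.8 (V:8760622-8762961) had 8.52, 5.15 and 9.12 CPM with auxin against 38.2, 40.2 and 23.6 CPM in the mock, a 4.43-fold lower level (log2 fold change -2.15 ± 0.36, adjusted p = 0.00372). ddn-1 (V:8758820-8760516), the adjacent gene on the same strand, had 14.5, 6.97 and 14.0 CPM against 53.3, 56.9 and 31.1 CPM, at -2.01 ± 0.35 (adjusted p = 0.00597). The pair of neighbours had the same order of libraries in the mock. vsra-1 had 46.8, 40.7 and 42.9 CPM against 102, 99.8 and 79.2 CPM, at -1.10 (adjusted p = 0.0136). clec-166, a C-type lectin, and cutl-18, of the cuticlin-like family, were at -1.36 and -1.14, with adjusted p-values of 0.0330 and 0.0403. With the replicate block these were 0.0595 and 0.0856.

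Among the 21 genes that rose, jmjd-3.3 changed most. jmjd-3.3 (WBGene00007813, X:13436422-13441438) belongs to the JmjC domain proteins, a family with many histone demethylases. It had 10.0, 9.93 and 11.3 CPM with auxin and 1.04, 1.25 and 0.924 CPM in the mock. All auxin libraries were several times above all mock libraries, at 8.87-fold (log2 fold change 3.15 ± 0.38, adjusted p = 2.54e-05). Its level was low, and it was not among the genes tested in CA1200.

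Detoxification enzymes and lipid enzymes made up a part of the rest. ugt-8, a UDP-glucuronosyltransferase, had 25.3, 18.1 and 24.0 CPM with auxin against 9.17, 5.19 and 4.62 CPM, at 1.86 (adjusted p = 0.0155). The glutathione transferases gst-21 and gst-7 were at 1.77 and 1.37, with adjusted p-values of 0.0376 and 0.0270 (0.0243 and 0.0600 with the replicate block). In gst-21 the mock values of 0.313 and 0.328 CPM in replicates 1 and 2 were near 3 reads, its log2 fold change ran from 0.94 to 2.10 over 20 alternatives, and the call was lost in 8. pho-4, an acid phosphatase, rose by 1.09. With auxin alone in CA1200 at 8 h, ugt-8 was at 1.80 and gst-21 at 2.25 on the log2 scale, and neither could be tested at 24 h. In the same strain pho-4 was at 0.79 at 24 h and -0.14 at 8 h, and gst-7 at -0.09 and -0.27. The part of auxin itself in the rise of these 4 genes in fem-3(q20) was not tested. acs-4, an acyl-CoA synthetase that had 539, 673 and 545 CPM against 352, 458 and 354 CPM, rose by 0.60. hacd-1, a hydroxyacyl-CoA dehydrogenase, and lipl-5, a lipase, rose by 0.59 and 0.56. nra-4, which acts in the assembly of receptors in the endoplasmic reticulum, had 249, 301 and 227 CPM against 151, 192 and 145 CPM and rose by 0.67. Y47H9C.1, F28F8.7 and lin-33 rose by 1.28, 0.70 and 0.70, the last 2 with adjusted p-values of 0.0554 and 0.0528 with the block. Of the lists of detoxification and lipid genes, 2 of 35 glutathione transferases, 1 of 59 UDP-glucuronosyltransferases and 1 of 37 genes of fat metabolism rose (5.71%, 1.69% and 2.70%, against 0.147% of all genes), with medians of 0.11, 0.08 and 0.07. These shares rest on 1 or 2 genes each. With the spread of the 18 fem-3 libraries 2, 5 and 1 rose (5.71%, 8.47% and 2.70%, against 3.57% of all genes).

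Both genes annotated as clec-209, a C-type lectin, rose by 0.85 and 0.84 (adjusted p = 0.0489 and 0.0547 with the block). They are near-identical copies on chromosome V that may share reads, with 88.1, 58.1 and 75.3 CPM against 42.5, 39.9 and 38.4 CPM in the copy with the larger change. In CA1200 with auxin alone they were at 1.04 at 24 h and 1.08 at 8 h, with limma p-values of 0.0673 and 0.0189 before adjustment.

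The auxin control bears on several of the genes that rose. At 24 h, 10 of the 21 could be tested in CA1200 and none had an unadjusted p under 0.05 there (1.41% of all genes did). At 8 h, 12 could be tested and 4 were below 0.05 (3.93% of all genes): the clec-209 copies, hacd-1 and gst-21. Of the 18 that fell, 11 could be tested at 24 h and 12 at 8 h, and none was below 0.05. In CA1200 itself auxin gave 1 call at each time, T16G1.6 at 24 h (2.90, 0.00976% of genes) and pgp-1 at 8 h (2.10, 0.00931%), and neither was called in fem-3(q20) at 24 h.

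Cytochrome P450 genes, the oxidases of foreign compounds, included genes with large changes that were called or not depending on the fit. None of 61 was called with the spread of all 35 libraries, and 8 rose with that of the 18 fem-3 libraries (13.1%, against 3.57% of all genes). In mean 45 were higher, 12 of them without overlap (11.8% of all genes were), and the median was 0.16. cyp-35A3 had 76.4, 7.81 and 26.5 CPM with auxin against 3.86, 0.985 and 0.706 CPM in the mock. Every auxin value was above every mock value, the auxin values spread widely, and replicate 1 was the highest in both groups. Its log2 fold change was 4.04 ± 0.97 with an adjusted p of 0.0690, which was 0.00262 with the 18 libraries and 8.64e-05 with the replicate block. cyp-35A4, cyp-35C1 and cyp-35A2 were at 4.26, 1.43 and 1.37, with adjusted p-values of 0.0532, 0.0884 and 0.127 and of 0.00175, 0.000410 and 0.00175 with the block.

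In CA1200 at 24 h with auxin alone, the same 4 genes were at 3.28, 2.54, 1.85 and 1.45 in the order cyp-35A3, cyp-35A4, cyp-35C1 and cyp-35A2. The unadjusted p-values there were 0.000131, 5.99e-05, 0.000941 and 0.00139, and none passed adjustment (0.268, 0.204, 0.877 and 0.952). cyp-13A5 differed from them, with 76.4, 63.1 and 66.5 CPM against 42.6, 27.9 and 29.4 CPM in fem-3(q20), at 1.06 (adjusted p = 0.177, and 0.0243 with the block), and -0.19 in CA1200. In all, 12 genes were called higher with the block and not without it, and 5 of them were cyp genes.

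Genes with few or no reads in the germline-less strain made up a further part of the rise. Of the 21 genes that rose, 7 had at most 3 reads in every glp-1 library (F56D6.12, Y46B2A.4, Y51A2B.5, Y47G6A.26, msrp-4, scl-17 and T02H6.7), and none of the 18 that fell did. Genes with so few reads in glp-1 were 756 of those tested, or 5.30%. F56D6.12 had 51.4, 51.6 and 51.3 CPM with auxin and 23.3, 26.3 and 20.8 CPM in the mock (log2 fold change 1.13 ± 0.20, adjusted p = 0.00597). scl-17 had the largest change, with 14.2, 19.9 and 21.2 CPM against 2.92, 3.28 and 7.39 CPM, at 2.10 (adjusted p = 0.0174, and 0.0528 with the block). Y47G6A.26 had 228, 281 and 231 CPM against 127, 132 and 140.1 CPM, at 0.89 (adjusted p = 0.0102, and 0.0528 with the block). For msrp-4 and T02H6.7 the adjusted p with the block was 0.0850 and 0.0595. Values near 0 in 17 glp-1 libraries lower the spread that a fit over 35 libraries gives such genes, and all 7 were also called with the spread of the 18 fem-3 libraries.

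Over the 756 genes 7 rose and none fell (0.926%, against 0.147% of all genes that rose). With the replicate block 3 rose and none fell (0.175% of all genes rose). In mean, 578 were higher and 178 lower with auxin. Auxin values were all above the mock values in 278 of them, against 11.8% of all genes tested, and all below in 24, against 5.49%. The median log2 fold change was 0.26, and 0.29, 0.30 and 0.18 in the pairs of replicates 1, 2 and 3. Summed over the genes, the auxin libraries held 39260, 47131 and 40032 CPM and the mock libraries 30863, 37070 and 35418 CPM. With the spread of the 18 fem-3 libraries, which has no glp-1 values in it, 118 rose and 3 fell, against 3.57% and 0.617% of all genes. The median remained above 0 under other scalings, at 0.23 with each library centred on its median and 0.21 with libraries scaled to their sum.

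Named sperm genes had mostly higher means, with no call over all 35 libraries. With the 18 fem-3 libraries 6 major sperm proteins rose and 1 fell, and 8 of the other sperm genes rose and 2 fell (3.57% of all genes rose and 0.617% fell). The major sperm proteins, the cytoskeletal proteins that drive sperm crawling, were higher in mean in 26 of 31 genes, with a median of 0.23 and pair medians of 0.36, 0.42 and -0.11 in replicates 1, 2 and 3. msp-65 had 247, 286 and 251 CPM against 139.6, 146 and 194 CPM, at 0.72 (adjusted p = 0.334, and 0.00128 with the 18 fem-3 libraries). Among 67 other sperm genes 52 were higher in mean, with a median of 0.21 and pair medians of 0.24, 0.26 and 0.01. In replicate 3 the summed levels of both lists were lower with auxin than in the mock. spch-1, a sperm chromatin protein, had 781, 959 and 810 CPM against 557, 678 and 774 CPM. The summed levels of the major sperm proteins overlapped between the groups, at 6889 to 8210 CPM against 5590 to 7201 CPM, as did those of the other sperm genes, at 28121 to 33704 against 25153 to 32617 CPM. nspd-6, also expressed in sperm, had 317, 320.0 and 270.5 CPM against 151, 151 and 182 CPM, at 0.91 (adjusted p = 0.155, and 6.24e-05 with the 18 libraries).

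Germ cell genes that are not specific to sperm did not share this direction. Of 40 genes of germ cells and meiosis 33 were lower in mean, with a median of -0.18 and none called, and their summed levels were 4320 to 5655 CPM with auxin and 5064 to 6478 CPM in the mock. The median of the 27 oocyte and eggshell genes tested was 0.02. The germ cell sums were lower with auxin in all 3 replicate pairs. Summed markers of intestine (959 to 1164 CPM with auxin against 1062 to 1285 in the mock) were lower in all 3 pairs, and those of neurons (225 to 274 against 205 to 242) and epidermis (1022 to 1245 against 862 to 1150) higher in all 3, although the groups overlapped. The intestine genes did not share the direction of their sum. Of 9 genes 5 were lower and 4 higher in mean, with pair medians of 0.17, 0.002 and 0.07. Body wall muscle markers (1923 to 2219 against 1815 to 2823) had no common sign. Whether an animal had more cells of a type or more RNA per cell cannot be told apart in whole-animal libraries, and the part of cell composition in the changes above was not tested.

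**Figure D4:**
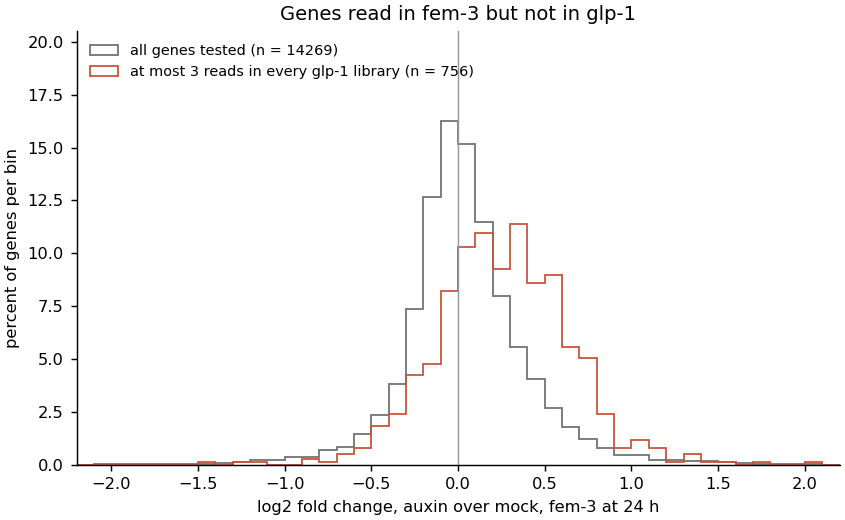
Percent of genes per bin of log2 fold change, auxin over mock at 24 h in fem-3(q20), for all 14269 genes tested (grey) and for the 756 genes with at most 3 reads in every glp-1 library (red). The red distribution lies to the right, with a median of 0.26 against 0.02, and 13 genes of the grey one fall outside the plotted range of -2.2 to 2.2.

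Depletion in fem-3(q20) was also sampled at 8 h and 48 h with separate libraries. Called at 8 h were 29 genes lower and 3 higher (0.203% and 0.021%), and at 48 h 190 lower and 128 higher (1.33% and 0.897%). Of the genes called at 24 h, 2 that rose and 10 that fell were also called at 8 h, and 9 and 12 at 48 h. The constitutive chaperones had medians of -0.24, -0.50 and -0.46 at 8, 24 and 48 h. hsp-90 was at -1.03, -1.26 and -0.91, hsc-70 at -0.89, -1.17 and -1.04 and dnj-13 at -1.04, -1.19 and -0.88. No change of these 3 with time was called.

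Of the 8 inducible chaperones 7 fell at 8 h, 1 at 24 h and 1 at 48 h, when 2 rose. Over all genes 0.203%, 0.126% and 1.33% fell at these times, and 0.897% rose at 48 h. For F44E5.4 the mock and auxin means were 7.71 and 0.347 CPM at 8 h, 6.34 and 5.45 CPM at 24 h and 13.0 and 37.9 CPM at 48 h. The difference between the 24 h and the 8 h effect was 3.96 ± 0.45 on the log2 scale (adjusted p = 3.08e-05), and that of F44E5.5 was 3.43 ± 0.41 (adjusted p = 3.17e-05). These copies were the only 2 genes called in that comparison (0.014%). The small heat shock genes had differences of the same sign that were not called, 2.45 for hsp-16.48 (adjusted p = 0.113) and 2.53 for hsp-16.49 (adjusted p = 0.0903).

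jmjd-3.3 was furthest from the mock at 48 h. Its log2 fold change was 0.94 at 8 h (adjusted p = 0.974), 3.15 at 24 h and 4.80 at 48 h (adjusted p = 7.83e-09), when the auxin libraries held 49.2 to 63.6 CPM and the mock libraries 1.26 to 3.28 CPM. The difference between 24 h and 8 h was 2.21 and was not called (adjusted p = 0.325). The pals genes had medians of -0.97, -0.51 and -0.36 at 8, 24 and 48 h. Called lower were 7, 5 and 5 of the 31 (0.203%, 0.126% and 1.33% of all genes). The 756 genes with few reads in glp-1 had medians of 0.17, 0.26 and 0.24, and 23 of them rose at 48 h (0.897% of all genes did).

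**Figure D5:**
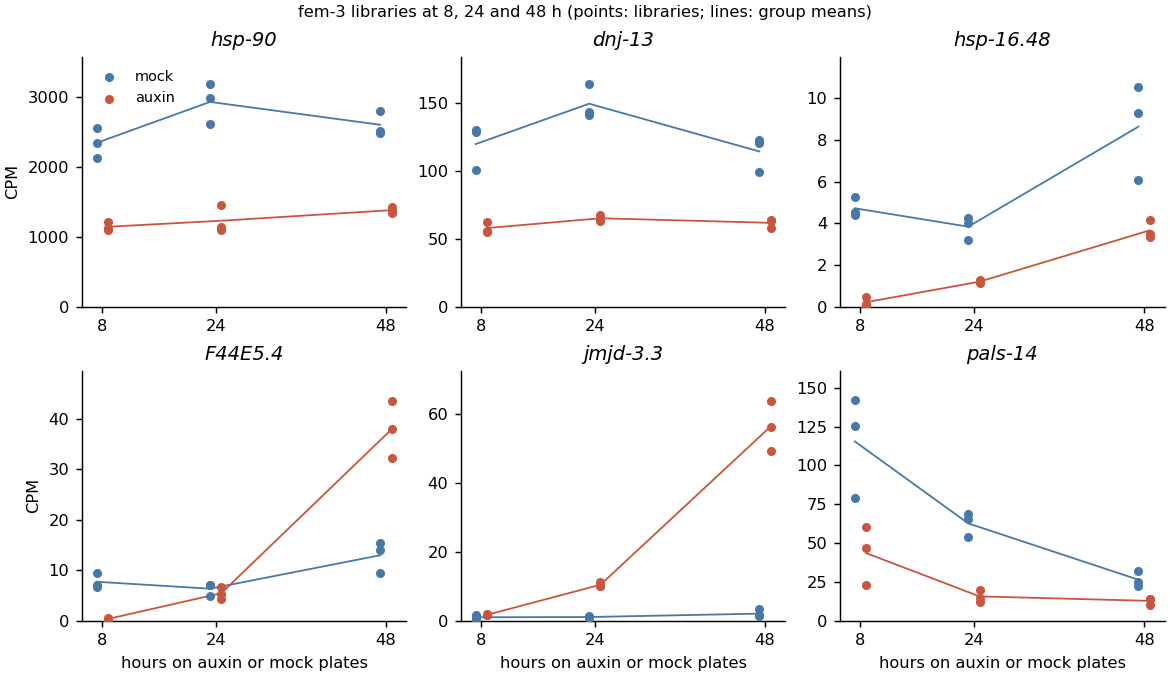
Level in CPM (linear axis from 0) of 6 genes in fem-3(q20) after 8, 24 and 48 h on mock (blue) or auxin (red) plates, with points for the 3 libraries of each group and lines through the group means. hsp-90 and dnj-13 are lower with auxin at each time, F44E5.4 goes from 0.347 against 7.71 CPM at 8 h to 37.9 against 13.0 CPM at 48 h, and jmjd-3.3 is above the mock from 24 h on.

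Between 24 h and 48 h the effect differed for 24 genes (0.168%), 12 in each direction. Intermediate filament genes of the intestine were among those whose effect went up: ifb-2, ifa-4 and ifc-2 were at 0.11, -0.05 and 0.03 at 24 h and 1.14, 0.95 and 1.43 at 48 h. Among those that went down, the lysozyme lys-1 went from -0.19 to -1.35 and acox-3, an acyl-CoA oxidase of the peroxisome, from 0.10 to -0.87. None of the 24 was called at 24 h. These genes were chosen for the text after their values were seen.

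Germline-less glp-1(e2141) animals (strain JTL667, with the genotype glp-1(e2141) III; hsf-1::aid::gfp I; ieSi57 II) were grown and treated alike. In them 51 genes rose and 43 fell at 24 h (0.357% and 0.301%). The comparison shares no library with that in fem-3(q20). The title and the agent tag disagree for its replicate 3, where the title was again followed. Called in both strains in the same direction were 10 genes, which is 25.6% of the 39 and 10.6% of the 94 of glp-1(e2141). They were the 8 called HSF-1 targets, whose list was chosen with glp-1 libraries, and the 2 copies of clec-209. These copies were at 1.04 at 24 h and 1.08 at 8 h with auxin alone in CA1200. The overlap is therefore no independent measure of agreement between the strains. Of the 28 targets 22 fell in glp-1(e2141), the strain the list was chosen in, and the medians there were -0.85 for constitutive chaperones, -3.26 for inducible chaperones and -0.93 for the other functions, beside -0.50, -1.62 and -0.26 in fem-3(q20). hsp-90, hsc-70 and dnj-13 were at -1.86, -1.47 and -1.04 in glp-1(e2141).

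A test of the difference between the strains called 5 genes (0.035%), each with an adjusted p of 0.0490. hsp-16.48 fell by more in glp-1(e2141), from 34.6, 18.8 and 14.3 CPM in the mock to 1.09, 0.970 and 1.08 CPM with auxin in its 3 replicates, and the difference of the effects was 2.61 ± 0.50 on the log2 scale. The auxin libraries of both strains were at about 1 CPM, and the mock libraries of fem-3(q20) were lower, at 3.22 to 4.27 CPM. hsp-16.49 had a difference of 2.65 ± 0.49. jmjd-3.3 was at 0.29 in glp-1(e2141), with a difference of 2.86 ± 0.53. pud-3 and pud-4, genes first described from an insulin signaling mutant, were at 1.34 and 1.31 in glp-1(e2141) and -0.23 and -0.22 in fem-3(q20).

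Differences of the constitutive chaperones between the strains were not called, with 0.60 ± 0.23 for hsp-90 (adjusted p = 0.526) and 0.67 for sti-1 (adjusted p = 0.481). No pals gene was called in glp-1(e2141), where the family's median was -0.33, and for none of them was a difference between the strains called. The 5 calls were not stable to the choice of libraries. None was left without any 1 of the 6 fem-3 libraries or without glp-1 auxin replicate 1 or 2, 1 without glp-1 auxin replicate 3 or mock replicate 1, and 27 without glp-1 mock replicate 2.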

How the data were processed

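Reads of poly(A)-selected, directional, paired-end libraries were aligned to WBcel235 with STAR and counted on genes with featureCounts, and edgeR was used for filtering and normalization, per the methods and the submitters' processing notes, which give no versions. The authors deposited log2 CPM values with a prior, equal to 0.124 CPM for a gene without reads. With log and prior undone, 100% of the values under 500 reads were whole reads within 0.02 of a read. CPM in the text are these values. A deposited column that marks the authors' own 24 h calls was not used. Tests on counts were not run because the unit is log2. Symbols and coordinates came from the Ensembl annotation of WBcel235, in which 15349 of 15364 IDs were found and 14682 had a symbol.

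Tests covered the 14269 genes that reached 1 CPM in 25% or more of the 35 libraries. lmFit and eBayes with trend (limma 3.58.1, R 4.3.3) fitted a mean for each of 12 groups to the log2 values, with two-sided tests and Benjamini-Hochberg adjustment over all genes tested. Of these, 12347 reached the mean of 2 CPM required for a call. Genes called for auxin in CA1200 were to be removed, and 0 of the called genes were affected. Only 2 genes were called there at 8 or 24 h, so this step could remove no others. The study's own list of genes changed by auxin was not used for it. The main fit was also run on simulated counts as a check of the code. These had the same spread setting for all genes and libraries and no replicate pairs, unlike the data. The simulation is therefore no test of the calls. Reads from PCR are not independent molecules, so the 3-read floor covers counting error only.

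Auxin and mock libraries with the same number deviated together from their group means (r = 0.219, 0.231 and 0.124 for replicates 1, 2 and 3, and below 0 for all other pairs), above the criterion of 0.1 in each pair, so the replicate block is given where it changes a call. The origin of the pairing is not stated.

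Named genes were hsf-1, the 28 targets, up to 12 genes called in each direction with the largest changes and no overlap, and up to 4 members of each gene list. The remaining called genes, the pals genes that missed the threshold, cct-2, hsp-70, msp-65, spch-1, nspd-6, the cyp genes, T16G1.6, pgp-1, and genes in the comparisons of effects were chosen after their values were seen. All members and lists were chosen with earlier results of these data known. The target list came from the study's supplement, the other lists from gene names, annotation and textbook markers. Alternatives are in the closing section. Sequences are not shown. Figures were drawn with Python 3.11.15 and matplotlib 3.10.9.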

Additional observations from a re-analysis of the deposited data

Results flagged for a closer look

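Effects that differed between strains or times by a test of the difference were 5 genes for fem-3(q20) against glp-1(e2141) at 24 h, 2 for 24 h against 8 h and 24 for 48 h against 24 h in fem-3(q20). Between the strains the differences were 2.86 for jmjd-3.3, 2.61 for hsp-16.48, 2.65 for hsp-16.49, -1.57 for pud-3 and -1.52 for pud-4. Between 24 h and 8 h they were 3.43 for F44E5.5 and 3.96 for F44E5.4. Between 48 h and 24 h they were -3.37 for clc-27, a claudin-like gene, -1.16 for lys-1, -2.12 for pud-3, -0.96 for acox-3, 1.02 for ifb-2, 0.997 for ifa-4 and 1.41 for ifc-2.

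A pair of genes moved one way in all 3 pairs of fem-3(q20) at 24 h and the other way in all 3 pairs of another comparison, without a call for the difference. nra-4 rose by 0.67 and was at -0.13 in glp-1(e2141), and Y47H9C.1 rose by 1.28 and was at -0.57 in fem-3(q20) at 8 h.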

How the results depend on the processing

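Over the alternatives that kept the title groups, no called gene changed direction. The 21 genes that rose and 18 that fell became 97 and 35 with a pseudocount of 0.5 CPM and 195 and 40 with 1 CPM. Fits of fewer libraries gave 406 and 61 (the 6 alone, 12 targets) and 509 and 88 (the 18 fem-3 libraries, 14 targets), all with the 39 among them. The replicate block gave 25 and 12 with 6 targets, and 1262 and 445 with 21 targets in the 6 libraries alone. Scaling to the sum gave 11 and 19 with a target median of -0.56, library quality weights 178 and 92 with 15 targets and -0.46, and precision weights from recovered reads 556 and 77.

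Grouping by the agent tag gave 0 and 0, with 0 targets and medians of 0.17 for the targets, 0.13 for constitutive, 0.55 for inducible targets and 0.16 for the pals genes. Replicate 1 alone, tested with the spread of the other groups, gave 0 and 0 with 0 targets.

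Leaving out 1 library at a time gave 7 (without mock replicate 2) to 30 genes that rose, 6 (without mock replicate 2) to 31 that fell and 4 (without auxin replicate 3) to 11 targets, with a target median of -0.57 to -0.46. The highest counts came without the glp-1 mock library of replicate 1 that stood apart, and leaving out any of these 6 lowered both counts of genes. Targets that were not called changed sign in this way: dnj-19 ranged from -0.018 to 0.13, mbf-1 from -0.16 to 0.030 and egg-5 from -0.19 to 0.16.

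Differences of effects numbered 9 between the strains and 42 between 48 h and 24 h with the replicate block, and 13 between the strains and 6 between 24 h and 8 h with a pseudocount of 1 CPM. Leaving out libraries gave 0 to 27, 14 to 32 and 2 to 6 for the strains, 48 h against 24 h and 24 h against 8 h. F44E5.4 and F44E5.5 were called each time. The cause of these shifts was not tested. The alternatives that drop the glp-1 library or libraries of the other contrasts, the pseudocounts for differences, and all settings for the medians were chosen after seeing the data. Depth limits the precision of genes near the floor of 3 reads.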
